A study of Homo sapiens with 12 samples.

Results

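The cytosolic ribosomal protein genes were taken as every annotated gene whose symbol is RPL or RPS followed by digits and at most a single A, L or X, together with RPLP0, RPLP1, RPLP2 and RPSA. Pseudogenes and the S6 kinase genes were dropped. Of the 58278 genes listed, 81 met this rule, and they comprised 49 RPL genes, which encode proteins of the large (60S) subunit, and 32 RPS genes, which encode proteins of the small (40S) subunit. Their mRNA was measured by poly(A) RNA sequencing in HK2, an established human cell line of proximal tubular epithelial origin, in 6 groups with 2 biological replicates each. Untreated cells formed the control group (Ctrl), and TN cells received tumour necrosis factor-α (TNF-α) at 5 ng/mL over 3 h. Cells of the PRTN and BUTN groups were given 15 mM propionate or 3 mM butyrate, both short-chain fatty acids (SCFAs), for 24 h and then TNF-α, whereas TNPR and TNBU cells received the same SCFA for 24 h once the TNF-α stimulus had been applied. Every SCFA group was also exposed to TNF-α, no group with an SCFA alone was analysed here, and the doses of the SCFAs differed, so that compound and dose cannot be told apart. TNPR and TNBU cells were also collected later after the TNF-α stimulus than TN cells. In their differences from TN, the SCFA and this time cannot be told apart.

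Each cytosolic ribosome joins a 40S subunit, which holds the mRNA and reads its codons, to a 60S subunit, which forms the peptide bonds, and most of their proteins are each present in a single copy per ribosome. In mammals almost every ribosomal protein comes from a single expressed gene accompanied by many processed pseudogenes, and a few genes have a second, more tissue-restricted copy (an "L" gene such as RPL3L or RPL39L). Ribosomal protein mRNAs start with a cytosine followed by a run of pyrimidines, the terminal oligopyrimidine (TOP) tract, through which their translation is set together by the mTOR pathway, with LARP1 as the factor that binds them.

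The first bases of the members that the results turn on are given as reference sequence from RefSeq (build GRCh38.p14), because the shared start is the feature that defines the class as TOP mRNAs. Each window runs 5′ to 3′ over 30 bases, with the annotated first base of the transcript at position 16, and capitals mark the unbroken pyrimidine run through that base where there is one.
RPL10 (chrX:154398362-154398391, plus strand): caggcggaggagcgCCTCTTTCCCTTCggt
RPL6 (chr12:112411428-112411457, minus strand): tatttgtatcctcagTgaatcagaaccaga
RPS27A (chr2:55232673-55232702, plus strand): tgcgcggcgTTCTTCCTTTTCgatccgcca
RPSA (chr3:39406705-39406734, plus strand): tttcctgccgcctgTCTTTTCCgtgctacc
RPL36A (chrX:101390996-101391025, plus strand): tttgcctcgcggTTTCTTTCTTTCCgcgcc
RPS23 (chr5:82278340-82278369, minus strand): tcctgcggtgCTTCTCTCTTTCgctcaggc
RPL18 (chr19:48619164-48619193, minus strand): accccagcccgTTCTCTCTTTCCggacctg
RPL11 (chr1:23691791-23691820, plus strand): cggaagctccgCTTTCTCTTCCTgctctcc
RPS3 (chr11:75399503-75399532, plus strand): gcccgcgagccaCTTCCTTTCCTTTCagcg
RPS27 (chr1:153990747-153990776, plus strand): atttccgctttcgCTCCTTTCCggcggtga
RPS27L (chr15:63157463-63157492, minus strand): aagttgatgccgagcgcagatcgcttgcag
RPL10, RPL6, RPS27A, RPSA, RPL36A and RPS23 fell furthest below TN by the mean over the 4 SCFA groups, RPL18 rose, and RPL11 and RPS3 passed in no SCFA group. The run is present in all of these except RPL6, where the annotated first base is a lone pyrimidine. The RefSeq start used for RPL6 lies inside the gene as annotated by GENCODE v44, which on the minus strand begins at 112418838. The window therefore does not show whether RPL6 mRNA from another start carries a run. RPS27 and its relative RPS27L differ at the start, and no run passes through the annotated first base of RPS27L.

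Library totals lay between 27269986 and 33851130 expected counts, and the scaling factors of the trimmed mean of M-values (TMM) between 0.913 and 1.06. Levels are given as CPM, the count relative to a library of standard size after TMM scaling. Of 12 proximal tubule markers, 6 reached 1 CPM in at least 1 library, with a summed level of 184 to 229 CPM without an SCFA and 82.8 to 111 CPM with one, most of it from GGT1. GGT1 alone was lower than TN in every SCFA group, and 6 of the 9 markers tested, such as AQP1 and ALPL, were higher. All 5 epithelial markers reached it, at 1120 to 1210 CPM in sum without an SCFA and 1730 to 2320 CPM with one, and EPCAM was lower than TN in every SCFA group while the other 4 were higher. Among 5 fibroblast and endothelial markers 4 reached 1 CPM, with sums of 43.4 to 52.7 and 154 to 213 CPM. Among 8 leukocyte markers 2 did, with sums of 1.19 to 1.44 and 3.11 to 5.24 CPM. The defining transporter SLC22A6 was at 0 in all 12 libraries. SLC34A1 did not exceed 0.087 CPM and LRP2 was at 0 without an SCFA and reached 0.99 CPM with one. The pan-leukocyte marker PTPRC did not exceed 0.15 CPM. The part of these markers in the results on ribosomal protein genes was not tested.

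As a family, the ribosomal protein genes held a similar part of the libraries in all groups. Their share of all expected counts was 3.32 and 3.09% (Ctrl), 3.21 and 3.42% (TN), 3.18 and 3.18% (PRTN), 3.23 and 3.35% (BUTN), 3.03 and 3.27% (TNPR) and 3.17 and 3.41% (TNBU). The ranges with and without an SCFA overlapped almost entirely, and in every group but PRTN the replicates stood further apart than the mean shares with and without an SCFA did. In every pair but PRTN at least 69 members differed between replicates in the same direction. In TNPR all 80 members tested were higher in replicate 2 than in replicate 1, in TNBU 75 and in TN and BUTN 69 each, whereas in Ctrl 3 were and in PRTN 44. The median absolute difference between replicates over the members ranged from 0.022 (PRTN) to 0.12 (TN) on the log2 scale. In bulk RNA, fewer cells expressing a gene and less RNA per cell cannot be told apart.

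**Figure D1:**
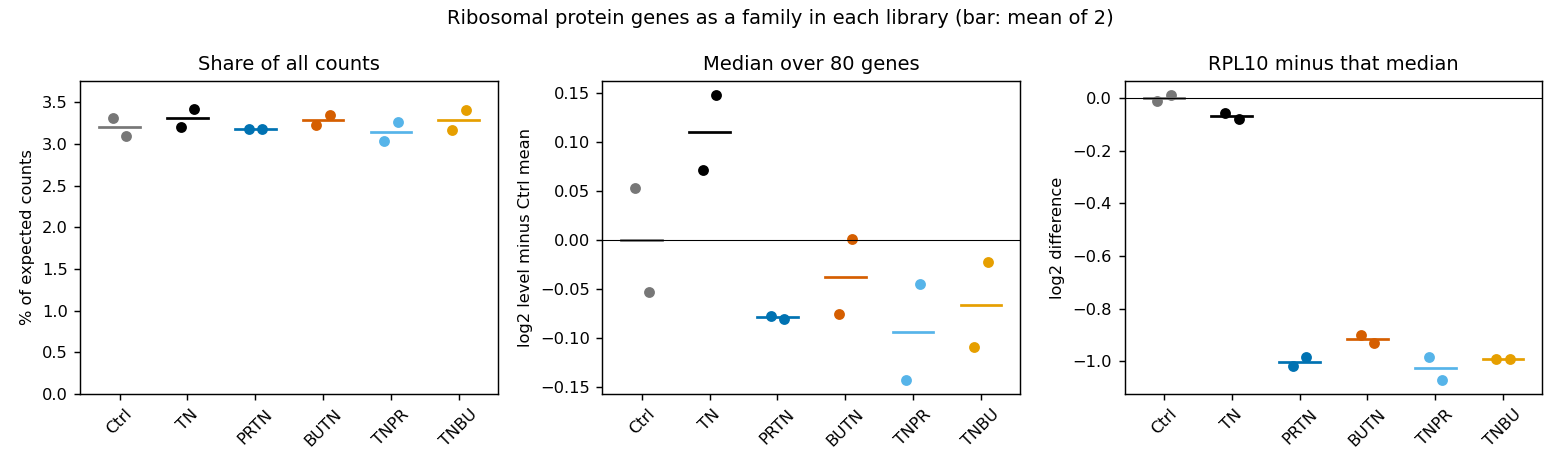
Ribosomal protein genes as a family, with each point a library and each bar the mean of 2. Left, their share of all expected counts in %, which stays between 3.03 and 3.42% in every group. Middle, the median over 80 members of the log2 level minus the mean of Ctrl, where both TN libraries lie highest. Right, RPL10 minus that median (log2), near 0 in the 4 libraries without an SCFA and between -0.90 and -1.07 in the 8 with one.

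Few ribosomal protein genes passed the test after TNF-α alone. Of 80 members tested by limma-voom with Benjamini-Hochberg adjustment over 24342 genes, 2 were higher in TN than in Ctrl at adjusted p under 0.05 and none lower, against 2.26% higher and 1.25% lower among all tested genes and 7.47% and 1.28% among genes at 100 CPM or more. Both encode 40S proteins. RPS27A, which is made as a fusion of ubiquitin to a 40S protein, was at 460.2 and 382 CPM in Ctrl and 509 and 568 CPM in TN (log2 fold change 0.36 ± 0.077 SE, limma-voom adjusted p = 0.0253), and RPS3A, a protein at the mRNA exit side, was at 544 and 461 CPM in Ctrl and 596 and 639 CPM in TN (0.30 ± 0.073, adjusted p = 0.0441). Each had both TN libraries above both Ctrl libraries. The call was lost, with the direction kept, in 6 of 22 alternative settings for RPS27A and in 11 of 22 for RPS3A. The median log2 fold change of the members was 0.11, beside -0.01 over all genes and 0.048 over the 2196 genes at 100 CPM or more. An unadjusted p under 0.05 was found for 24 members, beside 4140 of the 24342 tested genes and 635 of the 2196 at 100 CPM or more. No member passed with a change over 1.5-fold (0.764% of all tested genes higher and 0.534% lower). RPS15A, a small-subunit protein, had the largest value but replicates far apart (179 and 141 CPM in Ctrl, 195 and 264 CPM in TN, 0.52 ± 0.13, adjusted p = 0.0529). Without Ctrl replicate 2 or without TN replicate 2 no member passed, edgeR's quasi-likelihood test passed 2 (939 of all tested genes) and DESeq2 passed 13 (1125 of all tested genes). RPS3A was named after its values were seen.

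With TMM scaling, a large part of the family was lower than in TN and few members were higher. This held under both SCFAs, added before or after TNF-α. In PRTN 43 of 80 members were lower and 4 higher (all tested genes, 25.8% lower and 30.6% higher). The counts in BUTN were 36 lower and 8 higher (25.4% and 29.7%), in TNPR 45 and 4 (26% and 31.6%) and in TNBU 42 and 5 (26% and 31.3%). Abundant genes as a whole fell about as often. Among the 2196 genes at 100 CPM or more 47.2, 47.7, 50.2 and 50% were lower in these groups, and of the 74 members at that level 39, 33, 42 and 39 were lower. With TMM the difference lay on the other side, with 30.5, 26.9, 29.6 and 28% of abundant genes higher against 3, 6, 2 and 3 of those 74 members. With library size alone more members were higher, and the shares of abundant genes were not recomputed. The members also spread less, with an SD of the log2 fold change of 0.26, 0.24, 0.25 and 0.25 over the 74 members and of 0.78, 0.72, 0.81 and 0.79 over the abundant genes. Changes over 1.5-fold were rarer, with 6, 5, 6 and 4 members lower (16.7, 14.8, 16.9 and 16.5% of all tested genes) and a single member, RPL3L, higher in each group (23.9, 23.1, 24.9 and 25%). No test was run on the list as a whole.

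The size of the family's shift, and in BUTN and TNBU also its sign, depended on how the libraries were scaled. The median log2 fold change of the members with TMM was -0.21 for PRTN, -0.15 for BUTN, -0.22 for TNPR and -0.19 for TNBU, and the median of all tested genes was 0.086, 0.079, 0.12 and 0.093. With library size alone the median of all genes moved to 0.24, 0.23, 0.29 and 0.29, and that of the members to -0.051, 0.00053, -0.046 and 0.0069, with 23, 19, 24 and 16 members lower and 17, 22, 11 and 22 higher. Of all 24342 tested genes, 13790, 13292, 14126 and 14038 passed in either direction with that scaling. The median member stayed below the median of all genes under both scalings, which shift all members of a comparison by about the same amount. Beside genes of similar level it was close. With TMM the medians of the 74 members at 100 CPM or more were -0.202, -0.145, -0.22 and -0.189. Those of the 2196 abundant genes were -0.152, -0.149, -0.183 and -0.182, so that in BUTN the members were not lower. The median member of TN was itself 0.11 above Ctrl, and the SCFA groups differed less from Ctrl than from TN. Against Ctrl the member median was -0.082 for PRTN and -0.034 for BUTN, beside -0.081 and -0.091 over the abundant genes. By library, the member median relative to Ctrl was 0.072 and 0.148 in TN and -0.142 to 0.0009 in the 8 SCFA libraries. Leaving out a TN library moved the counts as well: without TN replicate 1, 47, 42, 53 and 47 members were lower and 2, 1, 1 and 1 higher, and without TN replicate 2, 34, 28, 36 and 31 were lower and 10, 11, 8 and 9 higher.

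**Figure D2:**
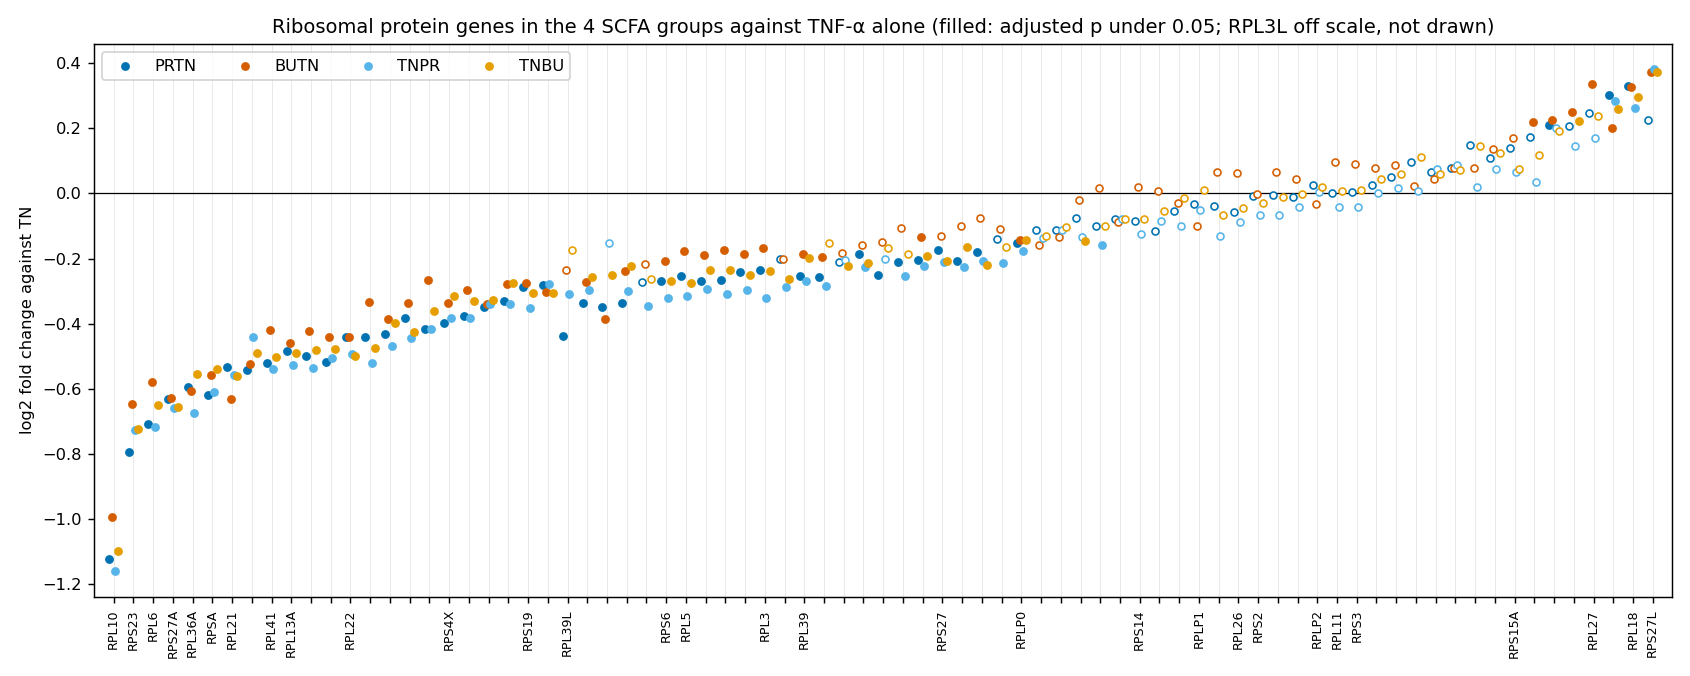
Log2 fold change against TN (vertical axis) of 79 ribosomal protein genes, sorted by their mean over the 4 SCFA groups, with colours for the groups and filled points for an adjusted p under 0.05. RPL10 stands apart at the lower end near -1.1, most genes lie between -0.7 and 0.2, and the 4 points of a gene lie close together. Selected genes are labelled, and RPL3L is off the scale and not drawn.

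In all 4 SCFA groups 34 of the 80 members were lower than in TN (42.5%, beside 21.1% of all tested genes and 43.7% of the abundant ones). They were 13 of the 32 small-subunit genes and 21 of the 48 large-subunit genes tested, so that both subunits were represented. In all 4 groups 3 were higher (24.3% of all tested genes and 24% of the abundant ones), 20 passed in 1 to 3 groups, of which 15 lower and 5 higher, and 23 passed in none. The fitted differences of the 34 ran from -1.16 to -0.13, and those of the 23 from -0.16 to 0.17. Beside the members described below, those lower in all 4 groups included RPL10A, RPL14, RPL15, RPL19, RPL27A, RPL30, RPL31, RPL37, RPL4 and RPL7A of the large subunit and RPS12, RPS24, RPS3A and RPS9 of the small subunit. Those that passed in none included RPL11, RPL12, RPL13, RPL17, RPL26, RPL32, RPL34, RPL35, RPL38, RPL8, RPLP1 and RPLP2, and RPS14, RPS15A, RPS16, RPS18, RPS2, RPS20, RPS21, RPS25, RPS28 and RPS3. RPL27, RPL28, RPS10, RPS15 and RPS27L were the 5 that passed as higher in 1 to 3 groups. With library size alone 16 members were lower in all 4 groups and 11 higher, and without TN replicate 1 a single member was higher. The share of all tested genes was not computed for these settings. In 28 members all 8 SCFA libraries lay below the other 4 (23.4% of all tested genes and 42.9% of the abundant ones), and in 4 members they all lay above (27.6% and 26.6%).

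Of the large subunit, RPL10 fell most and stood apart from the rest. RPL10, which sits near the peptidyl transferase centre and joins the 60S subunit at the last step of its maturation (chrX:154389955-154409168, plus strand, GRCh38, GENCODE v44), was at 1094 and 1033 CPM (Ctrl), 1075 and 1115 CPM (TN), 496 and 508 CPM (PRTN), 541 and 558 CPM (BUTN), 487 and 492 CPM (TNPR) and 496 and 527 CPM (TNBU). All SCFA libraries were at about the same level, far below the others. Its log2 fold change against TN was -1.12 ± 0.050 for PRTN, -1.0 ± 0.050 for BUTN, -1.16 ± 0.050 for TNPR and -1.10 ± 0.051 for TNBU (SE, limma-voom adjusted p = 2.63e-09 to 1.21e-08). RPL10 passed in all 4 groups under each of the 22 alternative settings. Set against the median member of the same library, RPL10 was at -0.079 to 0.011 without an SCFA and at -1.07 to -0.90 with one.

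RPL6, a protein on the solvent side of the 60S subunit (chr12:112405189-112418838, minus strand), was the next of the large subunit by the mean over the 4 groups, at 806 and 768 CPM (Ctrl), 824 and 797 CPM (TN), 491 and 500.1 CPM (PRTN), 540.0 and 545 CPM (BUTN), 475 and 510.3 CPM (TNPR) and 513 and 521 CPM (TNBU). The SCFA libraries did not overlap with the others, and its log2 fold changes against TN were -0.71 ± 0.050 for PRTN, -0.58 ± 0.050 for BUTN, -0.72 ± 0.050 for TNPR and -0.65 ± 0.050 for TNBU (limma-voom adjusted p = 1.19e-07 to 9.16e-07). RPL36A, on the X chromosome like RPL10, fell from 117 and 110.3 CPM in Ctrl and 141 and 113 CPM in TN to between 78.4 and 91.8 CPM in the SCFA libraries, with no overlap (-0.60 for PRTN, -0.61 for BUTN, -0.68 for TNPR and -0.55 for TNBU on the log2 scale against TN). RPL13A, known for its part in translational silencing outside the ribosome, ranged over 621 to 666 CPM in the 4 libraries without an SCFA and 443 to 470.2 CPM in the 8 SCFA libraries (-0.48 for PRTN, -0.46 for BUTN, -0.53 for TNPR and -0.49 for TNBU). RPL41, the smallest ribosomal protein, ranged over 647 to 778 CPM in the 4 libraries without an SCFA and 489 to 562 CPM in the 8 SCFA libraries (-0.52 for PRTN, -0.42 for BUTN, -0.54 for TNPR and -0.50 for TNBU). RPL22, which is dispensable for ribosome assembly in many cells, ranged over 249 to 286 CPM in the 4 libraries without an SCFA and 191 to 209.8 CPM in the 8 SCFA libraries (-0.44 for PRTN, -0.44 for BUTN, -0.50 for TNPR and -0.50 for TNBU). In none of these genes did the groups with and without an SCFA overlap.

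RPL3, a core protein next to the peptidyl transferase centre, moved less, with 1164 and 1174 CPM (Ctrl), 1175 and 1195 CPM (TN), 1010.2 and 1003 CPM (PRTN), 1063 and 1046 CPM (BUTN), 941 and 957 CPM (TNPR) and 989.8 and 1019 CPM (TNBU). Its groups did not overlap either, and the difference was -0.24 for PRTN, -0.17 for BUTN, -0.32 for TNPR and -0.24 for TNBU on the log2 scale against TN (limma-voom adjusted p = 2.60e-05 to 0.00393), of which only TNPR still passed with library size alone.

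Of the small subunit, RPS23, RPS27A and RPSA fell furthest. RPS27A (chr2:55231903-55235853, plus strand) was at 460.2 and 382 CPM (Ctrl), 509 and 568 CPM (TN), 353 and 341 CPM (PRTN), 346 and 349.9 CPM (BUTN), 340.2 and 341 CPM (TNPR) and 337 and 345 CPM (TNBU). The SCFA libraries fell within a narrow band below every other library, including Ctrl, although TN itself was above Ctrl. The log2 fold changes were -0.63 ± 0.077 for PRTN, -0.63 ± 0.077 for BUTN, -0.66 ± 0.078 for TNPR and -0.66 ± 0.078 for TNBU against TN (limma-voom adjusted p = 1.11e-05 to 1.98e-05) and -0.27 for PRTN, -0.27 for BUTN, -0.30 for TNPR and -0.30 for TNBU against Ctrl (adjusted p = 0.00559 to 0.011). The difference from Ctrl no longer passed in any group without Ctrl replicate 1. RPSA, the ribosomal protein first described as a laminin receptor (chr3:39406716-39426255, plus strand), was at 692 and 676 CPM (Ctrl), 680.4 and 691 CPM (TN), 448 and 445 CPM (PRTN), 468 and 464 CPM (BUTN), 431 and 467 CPM (TNPR) and 459.8 and 485 CPM (TNBU). The Ctrl and TN levels of RPSA overlapped, and the SCFA groups differed from TN by -0.62 ± 0.051 for PRTN, -0.56 ± 0.051 for BUTN, -0.61 ± 0.051 for TNPR and -0.54 ± 0.051 for TNBU on the log2 scale against TN (limma-voom adjusted p = 5.09e-07 to 1.82e-06).

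RPS23, a protein of the decoding centre (chr5:82273320-82278396, minus strand), was at 267 and 247 CPM (Ctrl), 277 and 278 CPM (TN), 159 and 161 CPM (PRTN), 170.2 and 185 CPM (BUTN), 161 and 175 CPM (TNPR) and 164 and 172 CPM (TNBU). Its log2 fold changes against TN were -0.80 for PRTN, -0.65 for BUTN, -0.73 for TNPR and -0.72 for TNBU (limma-voom adjusted p = 3.87e-07 to 2.68e-06). Of the counts on RPS23 and its 11 listed pseudogenes, 27.7% were on the pseudogenes, so its level is uncertain. With the pseudogenes summed in, the differences were -0.76 for PRTN, -0.65 for BUTN, -0.74 for TNPR and -0.70 for TNBU. RPS4X, an X-linked 40S protein, was lower too, at 758 to 849 CPM in the 4 libraries without an SCFA and 614 to 690.4 CPM in the 8 SCFA libraries (-0.40 for PRTN, -0.34 for BUTN, -0.38 for TNPR and -0.32 for TNBU). RPS6, the substrate of S6 kinase that is used to read mTOR activity, was lower against TN (-0.27 for PRTN, -0.21 for BUTN, -0.32 for TNPR and -0.27 for TNBU, limma-voom adjusted p = 5.36e-04 to 0.0106) but did not pass against Ctrl (-0.082 for PRTN, -0.021 for BUTN, -0.14 for TNPR and -0.082 for TNBU, adjusted p = 0.0748 to 0.795). Its SCFA libraries overlapped with the others. With library size alone RPS6 passed in TNPR alone. RPS19, the gene most often altered in Diamond-Blackfan anaemia, ranged over 328 to 405 CPM in the 4 libraries without an SCFA and 287 to 316 CPM in the 8 SCFA libraries (-0.29 for PRTN, -0.27 for BUTN, -0.35 for TNPR and -0.31 for TNBU), with no overlap, but without TN replicate 2 it passed only in TNPR and with library size alone in no group.

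**Figure D3:**
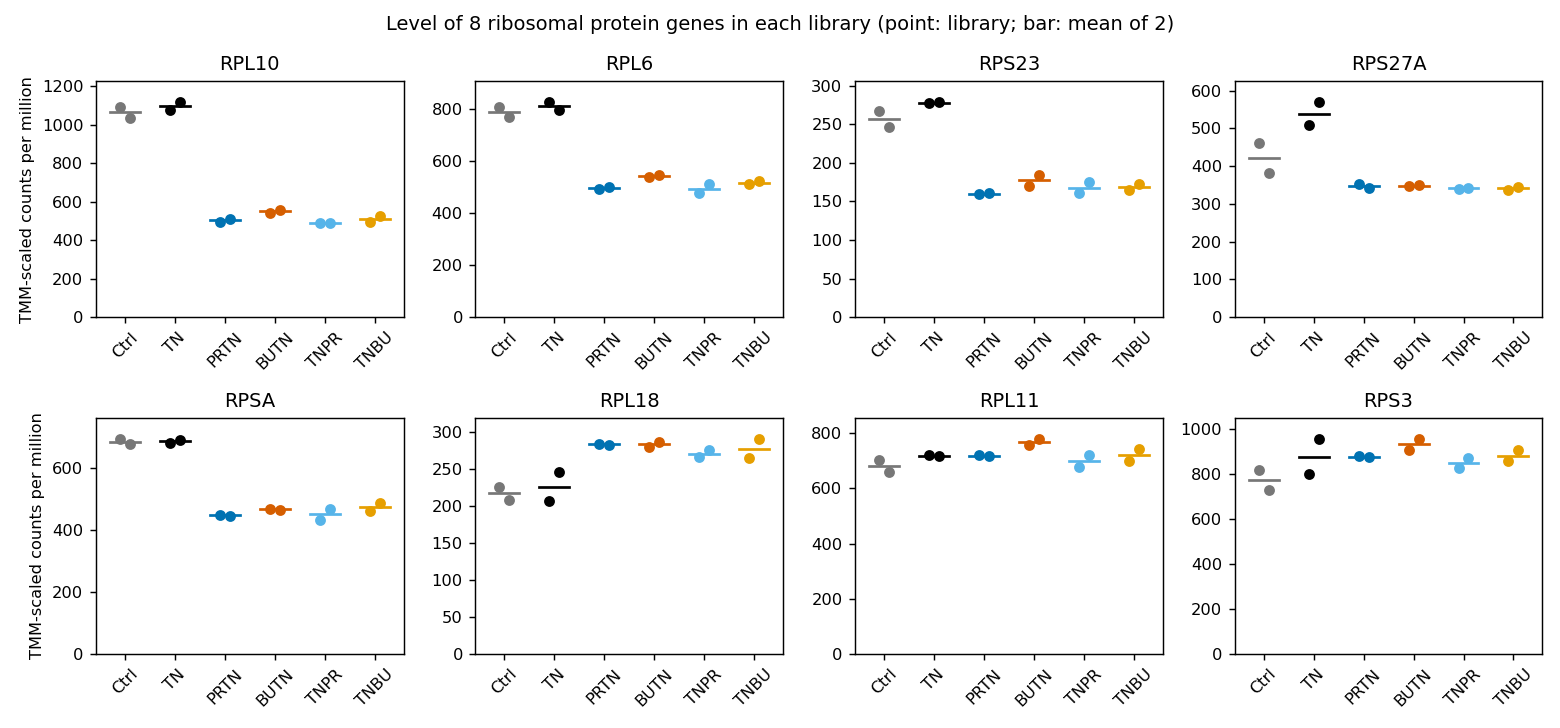
Level of 8 ribosomal protein genes in TMM-scaled CPM (vertical axis, from 0) in each group, with each point a library and each bar the mean of 2. RPL10, RPL6, RPS23, RPS27A and RPSA are lower in all 8 SCFA libraries, RPL18 is higher, and the ranges of RPL11 and RPS3 with and without an SCFA overlap.

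Members that bind to each other did not all pass together. The P stalk of the 60S subunit, which recruits the elongation factors, is built from RPLP0 and from RPLP1 and RPLP2. RPLP0 ranged over 1511 to 1631 CPM in the 4 libraries without an SCFA and 1336 to 1462 CPM in the 8 SCFA libraries (-0.15 for PRTN, -0.14 for BUTN, -0.18 for TNPR and -0.14 for TNBU on the log2 scale against TN, limma-voom adjusted p = 0.0132 to 0.04). With library size alone these values turned to 0.0017 for PRTN, 0.011 for BUTN and 0.054 in TNBU, and without TN replicate 2 it passed in no group. In BUTN and TNBU the RPLP0 call was lost, with the direction kept, in 12 and 13 of the 22 settings. RPLP1 (-0.032 for PRTN, -0.10 for BUTN, -0.052 for TNPR and 0.0099 for TNBU) and RPLP2 (0.027 for PRTN, -0.033 for BUTN, 0.0032 for TNPR and 0.020 for TNBU) passed in no SCFA group. RPL5 and RPL11 carry the 5S ribosomal RNA into the subunit together and, when free, bind MDM2. RPL5 was at 658 to 763 CPM in the 4 libraries without an SCFA and 596 to 693 CPM in the 8 SCFA libraries and was lower than in TN (-0.25 for PRTN, -0.18 for BUTN, -0.31 for TNPR and -0.28 for TNBU, adjusted p = 2.60e-04 to 0.0139), with overlapping libraries and, with library size alone, a call in TNPR alone. RPL11 was at 660.0 to 720.1 CPM in the 4 libraries without an SCFA and 676 to 779 CPM in the 8 SCFA libraries and passed in no group (0.000043 for PRTN, 0.096 for BUTN, -0.041 for TNPR and 0.0072 for TNBU). Differences between the responses of these members were not tested.

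Among the members that passed in no SCFA group were others often studied alone. RPS3, a 40S protein with a known role in NF-κB binding to DNA, was at 815 and 729 CPM (Ctrl), 798 and 953 CPM (TN), 878 and 872 CPM (PRTN), 907 and 953 CPM (BUTN), 826 and 869.8 CPM (TNPR) and 856 and 904 CPM (TNBU). The TN replicates stood far apart (0.0045 for PRTN, 0.092 for BUTN, -0.042 for TNPR and 0.012 for TNBU on the log2 scale, limma-voom adjusted p = 0.339 to 0.965). RPS14, lost in the 5q deletion syndrome, ranged over 282 to 349.8 CPM in the 4 libraries without an SCFA and 286 to 330.1 CPM in the 8 SCFA libraries, and RPL26, a protein at the exit of the peptide tunnel, over 264 to 342 CPM in the 4 libraries without an SCFA and 299 to 348 CPM in the 8 SCFA libraries. RPS2, a 40S protein near the mRNA entry site, ranged over 952 to 1069.7 CPM in the 4 libraries without an SCFA and 937 to 1017 CPM in the 8 SCFA libraries. Values with and without an SCFA overlapped in all of them.

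Fewer members rose than fell. RPL18 of the 60S subunit was at 225 and 209 CPM (Ctrl), 207 and 246 CPM (TN), 285 and 283 CPM (PRTN), 279.9 and 287 CPM (BUTN), 266 and 275 CPM (TNPR) and 264 and 291 CPM (TNBU). Its log2 fold changes against TN were 0.33 ± 0.077 for PRTN, 0.33 ± 0.077 for BUTN, 0.26 ± 0.077 for TNPR and 0.30 ± 0.077 for TNBU (limma-voom adjusted p = 0.00267 to 0.0111) and against Ctrl 0.39 for PRTN, 0.39 for BUTN, 0.32 for TNPR and 0.35 for TNBU (adjusted p = 8.76e-04 to 0.00343). Every SCFA library lay above every other library, by a narrow margin to TN replicate 2. Without TN replicate 1, RPL18 (0.18 for PRTN, 0.18 for BUTN, 0.11 for TNPR and 0.16 for TNBU) no longer passed against TN in any group. It was named after its values were seen.

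RPS15A and RPL27, a 60S protein, were higher than Ctrl in all 4 SCFA groups, although not higher than TN in all of them. RPS15A was at 179 and 141 CPM in Ctrl and at 225 to 259 CPM in the SCFA libraries (0.66 for PRTN, 0.69 for BUTN, 0.58 for TNPR and 0.59 for TNBU on the log2 scale against Ctrl, limma-voom adjusted p = 6.38e-04 to 0.00196), with the TN libraries at 195 and 264 CPM. RPL27 was at 165 and 143 CPM in Ctrl, 164 and 232 CPM in TN and 210.4 to 260.2 CPM with an SCFA (0.59 for PRTN, 0.68 for BUTN, 0.51 for TNPR and 0.58 for TNBU against Ctrl, adjusted p = 6.76e-04 to 0.0046). TN replicate 2 alone reached the SCFA level in both. Without Ctrl replicate 2 RPL27 no longer passed in TNPR. Over the family 9 members were higher and 29 lower than Ctrl in PRTN (29.9% and 25.7% of all tested genes). The same counts were 18 and 24 for BUTN (28.9% and 25.1%), 9 and 33 for TNPR (30.7% and 25.6%) and 8 and 25 for TNBU (30.2% and 26%). In all 4 SCFA groups, 21 members were lower than Ctrl (20.6% of all tested genes and 38.2% of the abundant ones) and 7 higher (23.4% and 26.5%), and the 21 were all among the 34 that were lower than TN. With library size alone 12 were lower and 17 higher. Without Ctrl replicate 1 the 21 became 12, and without Ctrl replicate 2 the 7 became 3. All these comparisons share the same Ctrl or TN libraries.

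RPL3L, a copy of RPL3 that is otherwise restricted to heart and skeletal muscle, was almost silent without an SCFA and detected with each. It had 2 and 2 counts in Ctrl and 2 and 1 in TN, against 36 and 35 (PRTN), 34 and 50 (BUTN), 23 and 31 (TNPR) and 18 and 31 (TNBU). The SCFA libraries lay far above the rest. Against a floor of 3 counts per library its level was at least 9.6-fold higher in PRTN than in TN, at least 11.4-fold in BUTN, at least 7.62-fold in TNPR and at least 7.56-fold in TNBU (limma-voom adjusted p = 1.21e-04 to 4.68e-04). The gene nevertheless stayed marginal beside RPL3, with 0.318 CPM per kb of transcript over the 12 libraries against 819 for RPL3. RPL10L, a testis-restricted copy of RPL10, had 0 counts in all 12 libraries, which allows up to 3 counts in each.

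Where a ribosomal protein has more than 1 source gene, the ratio of the partners separated libraries with and without an SCFA in some cases. The ratios of RPL22 to RPL22L1 and of RPL39L to RPL39 overlapped. As single genes, 23.4% of all tested genes had all 8 SCFA libraries below the 4 others and 27.6% had them above. No such share was computed for ratios, and the ratios were not tested. RPL36A and its copy RPL36AL had a log2 ratio of 0.24 to 0.51 without and -0.38 to -0.13 with an SCFA, RPL36AL itself passing in no group (-0.017 for PRTN, -0.060 for BUTN, -0.0049 for TNPR and -0.010 for TNBU). This ratio did not overlap between the libraries with and without an SCFA.

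RPL26L1, which encodes a close copy of RPL26, was higher (0.60 for PRTN, 0.43 for BUTN, 0.74 for TNPR and 0.61 for TNBU against TN, limma-voom adjusted p = 8.46e-04 to 0.0267) while RPL26 passed in no group. The log2 ratio of RPL26L1 to RPL26 was -4.18 to -3.92 without an SCFA and -3.72 to -3.10 with one. Its call in BUTN was lost without either TN library or either BUTN library. RPS27L, a relative of RPS27, was at 30.1 to 34.8 CPM in the 4 libraries without an SCFA and 36.6 to 47.6 CPM in the 8 SCFA libraries. It was higher than TN in BUTN, TNPR and TNBU (0.23 for PRTN, 0.37 for BUTN, 0.38 for TNPR and 0.37 for TNBU against TN, adjusted p = 0.0251 to 0.165), though not in any of them without TN replicate 1. RPS27 was lower in PRTN, TNPR and TNBU (-0.17 for PRTN, -0.13 for BUTN, -0.21 for TNPR and -0.21 for TNBU, adjusted p = 0.00836 to 0.0763). The log2 ratio of RPS27L to RPS27 was -3.54 to -3.32 without and -3.10 to -2.67 with an SCFA, again with no overlap.

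RPL22L1 was the single gene of this group that TNF-α raised. It was at 7.07 and 5.27 CPM (Ctrl), 11.1 and 11.7 CPM (TN), 6.31 and 6.97 CPM (PRTN), 4.85 and 5.75 CPM (BUTN), 6.6 and 5.5 CPM (TNPR) and 5.4 and 5.81 CPM (TNBU). TN was above every other group, by 0.89 ± 0.15 on the log2 scale against Ctrl (limma-voom adjusted p = 0.00527), a call that was lost without Ctrl replicate 2. The SCFA groups differed from TN by -0.78 for PRTN, -1.10 for BUTN, -0.91 for TNPR and -1.02 for TNBU, and their levels fell among or near the Ctrl values. RPL7L1, a nucleolar relative of RPL7, was lower than TN in all SCFA groups (-0.67 for PRTN, -0.61 for BUTN, -0.87 for TNPR and -0.84 for TNBU). RPL39L, the testis-enriched copy of RPL39, was at 11.6 to 13 CPM in the 4 libraries without an SCFA and 8.9 to 11.4 CPM in the 8 SCFA libraries and passed in PRTN and TNPR (-0.44 for PRTN, -0.24 for BUTN, -0.31 for TNPR and -0.18 for TNBU). RPL39, a protein of the exit tunnel, passed in all 4 groups (-0.25 for PRTN, -0.19 for BUTN, -0.27 for TNPR and -0.20 for TNBU), but without TN replicate 2 only in TNPR, and with library size alone in no group. In BUTN the call was lost in 10 of 22 settings, edgeR and DESeq2 among them, and in TNBU in 6. FAU, which fuses a ubiquitin-like protein to RPS30, and RACK1, the scaffold on the head of the 40S subunit, were both lower (-0.41 for PRTN, -0.49 for BUTN, -0.41 for TNPR and -0.37 for TNBU for FAU and -0.36 for PRTN, -0.31 for BUTN, -0.38 for TNPR and -0.36 for TNBU for RACK1).

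**Figure D4:**
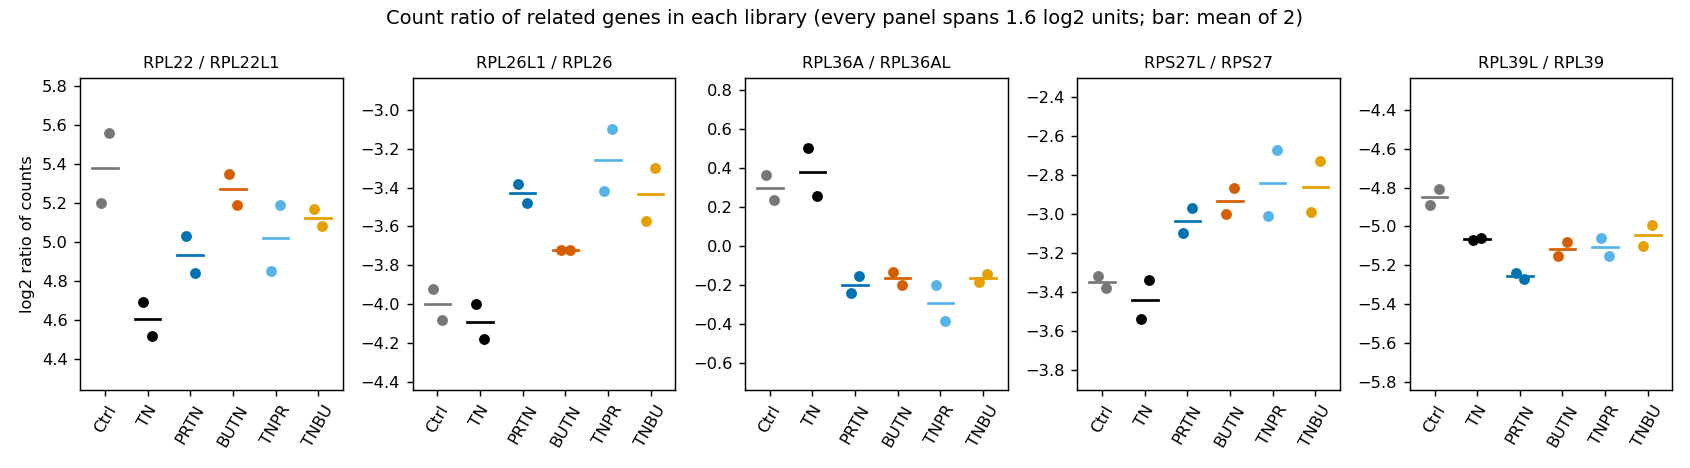
Log2 ratio of the counts of related genes (vertical axis, each panel spanning 1.6 log2 units) in each group, with each point a library and each bar the mean of 2. RPL36A over RPL36AL is lower in all 8 SCFA libraries, RPL26L1 over RPL26 and RPS27L over RPS27 are higher, and the ratios of RPL22 to RPL22L1 and of RPL39L to RPL39 overlap.

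Propionate and butyrate were also compared with each other. Between PRTN and BUTN no member passed by limma-voom (lowest adjusted p = 0.266), beside 0.238% of all tested genes higher and 0.337% lower. RPL10, RPL6 and RPS23 had an unadjusted p under 0.05, 3 members in all, and were lower with propionate. No member passed by edgeR or DESeq2, whereas a fit on these groups alone passed 5 members, and 2149 of 24342 genes. For RPL10 the difference of PRTN from BUTN was -0.13 on the log2 scale, with an unadjusted 95% interval of -0.24 to -0.017 (limma-voom adjusted p = 0.282). For RPS27A it was -0.0045 (-0.18 to 0.17). Leaving RPL3L aside, the members ran from -0.20 (RPL39L) to 0.10, with a median half-width of the 95% interval of 0.15. Between TNPR and TNBU (0.00411% of all tested genes higher and 0.0164% lower) no member passed by limma-voom, edgeR or DESeq2, 0 had an unadjusted p under 0.05, and the members ran from -0.13 to 0.099.

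No difference with the time of SCFA addition was detected in the family. Between TNPR and PRTN no member passed by limma-voom, edgeR or DESeq2 and 1 had an unadjusted p under 0.05 (0.0822% of all tested genes higher and 0.181% lower), with members between -0.14 (RPS10) and 0.20 (RPS26). Between TNBU and BUTN no member passed by any of them and 2 had an unadjusted p under 0.05 (0.214% higher and 0.567% lower), with members between -0.14 (RPL23) and 0.13 (RPS26). RPL10 differed by -0.038 between TNPR and PRTN (95% interval -0.15 to 0.075) and by -0.10 between TNBU and BUTN (-0.22 to 0.0089). The order of the agents and the time from TNF-α to collection cannot be told apart in these pairs.

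Elongation factors, other TOP mRNAs and ribosomal protein chaperones had lower medians than the ribosomal proteins, and initiation factors, mitochondrial ribosomal proteins and regulators did not in every group. For comparison, 25.4 to 26% of all tested genes were lower than TN and 29.7 to 31.6% higher. Among the genes at 100 CPM or more 47.2 to 50.2% were lower and 26.9 to 30.5% higher. Of 8 elongation factor genes 6, 5, 6 and 6 were lower than TN (PRTN, BUTN, TNPR and TNBU), with medians of -0.46, -0.42, -0.45 and -0.43 on the log2 scale. EEF1B2, which recharges EEF1A with GTP, was lower (-1.13 for PRTN, -1.06 for BUTN, -1.14 for TNPR and -1.13 for TNBU), and so was EEF1A2, which delivers aminoacyl-tRNA (-0.89 for PRTN, -0.73 for BUTN, -1.10 for TNPR and -0.96 for TNBU). Of 16 other TOP mRNAs 11, 10, 11 and 11 were lower (medians -0.34, -0.30, -0.34 and -0.32), among them HNRNPA1 (-0.89 for PRTN, -0.58 for BUTN, -1.07 for TNPR and -0.90 for TNBU). Dedicated chaperones that carry new ribosomal proteins to the ribosome were lower in 6, 5, 6 and 6 of 8 (medians -0.64, -0.54, -0.59 and -0.65), with LTV1 (-0.89 for PRTN, -0.93 for BUTN, -0.99 for TNPR and -1.22 for TNBU) and PDCD2L (-0.77 for PRTN, -0.46 for BUTN, -0.81 for TNPR and -0.69 for TNBU) as examples.

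Of 37 initiation factor genes 17, 19, 19 and 21 were lower and 8, 5, 9 and 5 higher in PRTN, BUTN, TNPR and TNBU (medians -0.088, -0.21, -0.17 and -0.19). EIF4G2 (-1.83 for PRTN, -1.63 for BUTN, -2.00 for TNPR and -1.94 for TNBU) and EIF5 (-1.47 for PRTN, -1.48 for BUTN, -1.55 for TNPR and -1.57 for TNBU) were the lowest in PRTN. The 78 mitochondrial ribosomal proteins went both ways, with 33, 38, 36 and 37 lower and 18, 10, 20 and 19 higher (medians -0.12, -0.18, -0.097 and -0.14), and MRPL15 (-1.45 for PRTN, -1.35 for BUTN, -1.48 for TNPR and -1.38 for TNBU) and MRPL9 (-1.40 for PRTN, -1.22 for BUTN, -1.33 for TNPR and -1.33 for TNBU) lowest in PRTN. Among 12 regulators of ribosomal protein expression 5, 7, 5 and 6 were lower and 3, 2, 4 and 4 higher (medians -0.10, -0.31, -0.11 and -0.22). LARP1, the TOP mRNA binding protein, was lower (-1.12 for PRTN, -1.08 for BUTN, -1.23 for TNPR and -1.17 for TNBU) and EIF4EBP2, a translational repressor under mTOR, was higher (0.99 for PRTN, 0.79 for BUTN, 0.94 for TNPR and 0.86 for TNBU). The lower genes were 46 to 56.8% of the initiation factors and 42.3 to 48.7% of the mitochondrial ribosomal proteins. Both shares lie near the 47.2 to 50.2% of the genes at 100 CPM or more. These lists are small, share several genes, such as EEF1A1 and EIF4B, and were not compared by a test.

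**Figure D5:**
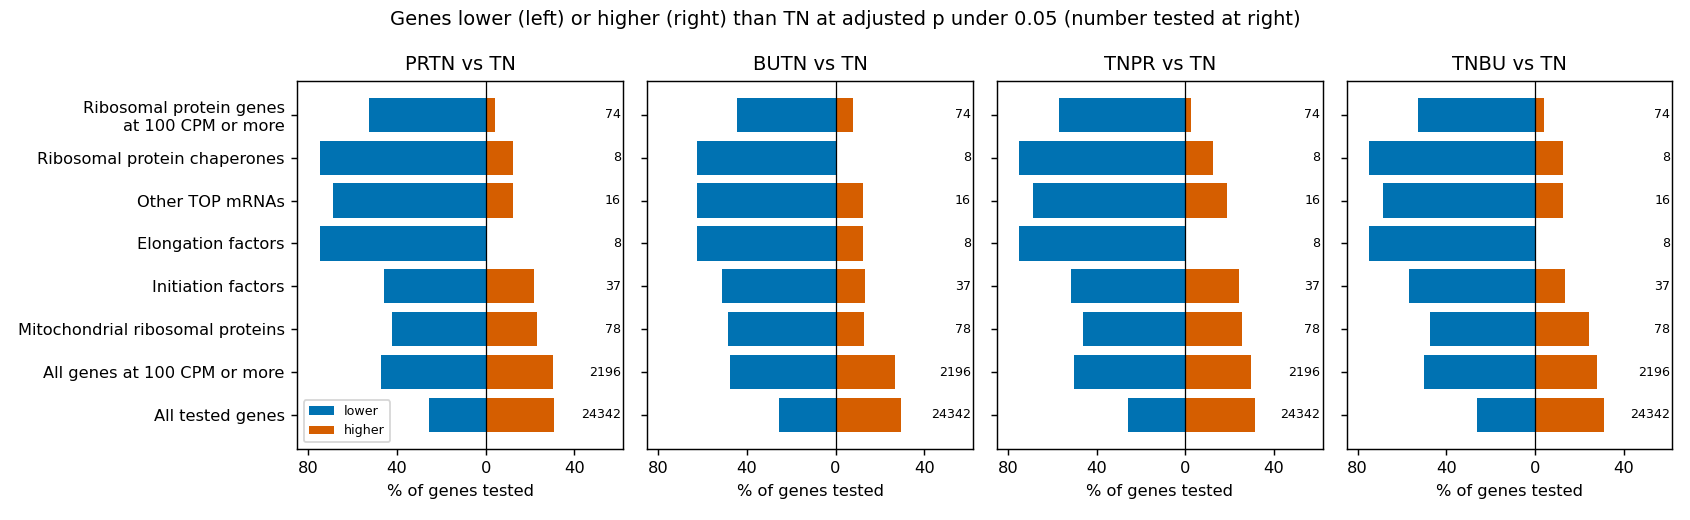
Share of genes lower (to the left) or higher (to the right) than TN at adjusted p under 0.05, in % of the genes tested, for each list (rows, with the number tested at the right) in each SCFA group. With TMM scaling, the 74 ribosomal protein genes at 100 CPM or more have about the same share of lower genes as all 2196 genes at that level. Their share of higher ones is smaller.

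The pyrimidine start was found both in members that fell and in members that did not. RefSeq promoter windows were available for 64 members, of which 46 (71.9%) had a cytosine as first base followed by at least 4 pyrimidines at an annotated start, as did 5.14% of 27305 genes. Within 250 bases upstream 60.9% of the members held CGGAAG, the core of the ETS and GABPA site, on either strand (19.4% of all genes), and 4.69% held CACGTG, the E-box (7.73%). No member held CGGAAG solely where it overlaps the pyrimidine run. Members with the pyrimidine start had median log2 fold changes of -0.21 for PRTN, -0.15 for BUTN, -0.23 for TNPR and -0.19 for TNBU, and the 17 tested without it -0.24, -0.19, -0.29 and -0.24. Among the sequences printed above, RPL10 and RPL11 both begin with such a run, and RPL10 passed in every SCFA group and RPL11 in none. A match to these letters is a description of the window only. A window without a match depends on the annotated start used and does not exclude a run at another start.

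The counting of near-identical copies limits the levels of some members. The annotation lists 1123 pseudogenes of 76 members, on which the RSEM program divides reads by estimation. Pseudogenes held a median of 0.208% of the counts of a member and its pseudogenes, but over 20% for 5 members, among them RPL21 (55.7%), RPL9 (52%), RPS23 (27.7%) and RPS28 (22.9%). For RPL10 the share was 0.453%, for RPL6 0.897%, for RPS27A 3.61% and for RPSA 2.86%. RPL21 was lower than TN in all 4 groups (-0.53 for PRTN, -0.63 for BUTN, -0.56 for TNPR and -0.56 for TNBU), also with its pseudogenes summed in (-0.59 for PRTN, -0.59 for BUTN, -0.59 for TNPR and -0.65 for TNBU). RPL9 lost its calls in TNPR and TNBU in that way. RPL17, RPL36A and RPS10 share exons with the read-through genes RPL17-C18orf32, RPL36A-HNRNPH2 and RPS10-NUDT3, so that their counts are uncertain for the same reason, to differing degrees. RPL36A-HNRNPH2 held at most 74.9 expected counts in a library, beside 2288 or more for RPL36A. RPL17-C18orf32 held 565 to 661 without and 1434 to 1970 with an SCFA, beside 7544 to 12346 for RPL17. RPS10-NUDT3 held 1195 to 1307 without and 624 to 977 with an SCFA, beside 9960 to 16496 for RPS10.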

How the data were processed

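Per the labels, poly(A) RNA of HK2 cells was prepared with a stranded kit and sequenced in 12 libraries. After quality control with FastQC (0.11.5), the authors used STAR (2.6.1a) with GRCh38 and RSEM with GENCODE v26 to estimate expected counts per gene, and the deposited values are these expected counts, not scaled to library size, with 1 file per library. The RSEM version and its strand setting are not given in the sources used here. Groups were taken from the source names and titles, because the treatment field of the labels also names agents of other experiments. That the replicates are biological is stated by the submitters, and the p-values measure the spread between these pairs only.

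Genes were kept where the geometric mean of count + 1, less 1, was at least 1, which left 24342 of 58278. All 12 libraries were fitted together by group with limma-voom (limma 3.58.1, edgeR 4.0.16, R 4.3.3) and TMM scaling, with Benjamini-Hochberg adjustment over all tested genes. A gene passed at adjusted p under 0.05. CPM in the text are scaled by TMM. Alternatives were edgeR's quasi-likelihood test and DESeq2 (1.42.0) on expected counts rounded to whole numbers, other scalings, filters and fold thresholds, only the groups compared, a replicate block, leaving out each library, and members summed with their listed pseudogenes. Counts of members that passed in all 4 SCFA groups were recomputed in these ways after the data had been seen. Shares of all tested genes in each direction were computed only for the TMM-scaled limma-voom fit of all 12 libraries. The fits were tested on simulated data. Tables and figures were made with Python 3.11.15, numpy 2.4.6, pandas 2.3.3 and matplotlib 3.10.9.

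The members, the lists and the tests were chosen with earlier results of these data known. Members were named if they have a well-known role or a paralog, and otherwise as up to 5 with the largest passing changes over 1.5-fold in each direction of a comparison, or the 3 highest and lowest values where there was none. Related genes outside the rule were named, and up to 2 genes of each other list. RPL18, RPS3A and EIF4EBP2, and members listed by class or at the end of a range, were named after their values were seen. A few genes are not reported here. Gene coordinates are from GENCODE v44 on GRCh38. Transcript starts are from RefSeq on GRCh38.p14, by gene symbol, and 64 of 81 members matched. Depth was about equal between libraries, and the floor of 3 counts covers counting error only.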

Additional observations from a re-analysis of the deposited data

How the results depend on the processing

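Among single genes, RPL10, RPL6, RPS23, RPS27A, RPSA, RPL36A, RPL21, RPL22, RPL13A, RPL41 and RPL3L kept their direction and passed against TN in all 4 SCFA groups under each of the 22 settings. Over the named genes 2992 of the recomputed values kept direction and call, 173 kept the direction without passing, and 3 reversed. The reversals were all of RPLP0 with library size alone, at 0.0017 in PRTN, 0.011 in BUTN and 0.054 in TNBU. With library size alone the member median was -0.051 for PRTN, 0.00053 for BUTN, -0.046 for TNPR and 0.0069 for TNBU, members higher were 17, 22, 11 and 22, members lower 23, 19, 24 and 16, and members over 1.5-fold 3, 2, 2 and 2. With that scaling 1 member was higher in TN than in Ctrl, 16 members were lower than TN and 11 higher in all 4 SCFA groups, and 12 were lower than Ctrl and 17 higher. The scaling itself moved the median of all genes by the amounts given in the report. For TN against Ctrl, the members higher were 13 by DESeq2, 4 with relative log expression factors, 4 with genes holding any 0 removed, 0 with only the groups compared and 1 with the replicate block. At a fold over 1.2, 2 members were called in TN, and 33, 29, 39 and 28 in the SCFA groups. At a fold over 2 these were 2, 1, 2 and 2. Without a filter 4 members were higher in BUTN and 3 in TNBU. With only the groups compared 2 were higher in TNPR and 2 in TNBU, 1 was higher than TN in all 4 groups, and 5 passed between PRTN and BUTN. The cause was not tested. Without mitochondrial counts the mean share of the members was 3.54% without and 3.5% with an SCFA.

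Leaving out each library in turn gave ranges as follows. For TN against Ctrl the median ran from 0.053 to 0.17, members higher from 0 to 6 and over 1.5-fold from 0 to 2. In PRTN the median ran from -0.28 to -0.15, higher from 2 to 10, lower from 34 to 47 and over 1.5-fold from 6 to 9. In BUTN these were -0.23 to -0.10, 1 to 11, 28 to 42 and 6 to 7. In TNPR they were -0.34 to -0.20, 1 to 8, 36 to 53 and 7 to 10, and in TNBU -0.26 to -0.12, 1 to 9, 31 to 47 and 5 to 8. The median of PRTN against BUTN ran from -0.080 to -0.024, of TNPR against TNBU from -0.10 to 0.0034, of TNPR against PRTN from -0.078 to 0.00068 and of TNBU against BUTN from -0.086 to -0.0028. Members lower than TN in all 4 groups ran from 27 to 40 and higher from 1 to 7, and against Ctrl from 12 to 23 and from 3 to 9. The correlations of same-numbered deviations over 15 pairs of groups lay between -0.035 and 0.066, taken over all tested genes. Counting noise in genes of low level draws such values toward 0, so they cannot exclude that replicate numbers pair the samples. The block is given as a check only. With 2 libraries in each group, the median half-width of the unadjusted 95% interval between SCFA groups was about 0.15 on the log2 scale.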
